A study of Mus musculus with 45 samples.

Results

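The mitochondrial genome of the mouse (mtDNA) is a small circle that is separate from the chromosomes, and its 37 annotated genes were taken as every gene whose symbol starts with mt-, out of 47729 genes in the count tables. They comprise 13 genes for proteins, 2 for ribosomal RNAs (rRNAs) and 22 for transfer RNAs (tRNAs). Reads were found for 15 of them, all 13 protein genes and both rRNA genes, and these 15 passed the filter on low counts (over 5 reads in 6 or more of 45 libraries). All 22 tRNA genes were listed at 0 in every library.

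Bulk RNA-seq had been made from live EpCAM+CD45+ Siglec-F+ cells sorted from the small intestine, a gate used to enrich tuft cells, with 1 library per mouse. The mice were male C57BL/6J without genetic modification, aged 5 weeks at arrival and housed at thermoneutrality. They were fed a reference diet with 10% fat (RFD) or a high fat diet with 60% fat (HFD). The libraries form an STF set with 11 RFD and 11 HFD mice and an LTF set with 11 RFD and 12 HFD mice. The labels give 9 weeks of feeding for all 45 libraries, although the study describes a shorter and a longer feeding time, so the names STF and LTF are kept here, and feeding time and set of libraries cannot be told apart. As a check, values were also taken within 3 ranges of the mouse number, called number series here (1 to 8, multiples of 10, and other numbers from 21 to 64), which leave out mouse 84 of the STF set and mouse 65 of the LTF set. The labels do not say what the numbers stand for.

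The mtDNA is transcribed from both strands as long precursor RNAs, which are cut into single RNAs largely at the tRNAs that lie between the other genes. Its protein genes encode subunits of the respiratory chain and of ATP synthase: the mt-Nd genes encode subunits of complex I (NADH dehydrogenase), mt-Cytb the cytochrome b of complex III, mt-Co1 to mt-Co3 the core of complex IV (cytochrome c oxidase), and mt-Atp6 and mt-Atp8 subunits of ATP synthase. The 2 rRNAs, mt-Rnr1 and mt-Rnr2, belong to the mitochondrial ribosome. All other factors needed to copy, transcribe and process mtDNA are encoded in the nucleus. In bulk RNA, fewer cells of a type and less RNA per cell cannot be told apart.

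Several protein genes have near-identical copies in the nuclear genome, and the sequences are shown first because they decide how far single mtDNA genes can be read. On chromosome 1 of GRCm38, between positions 24611535 and 24616197 on the minus strand, lie 7 annotated copies with at least 99% identity to an mtDNA gene over their aligned length. The copy Gm28437 aligned to mt-Co3 over 783 bases with no difference, and their first 60 bases read the same.

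mt-Co3: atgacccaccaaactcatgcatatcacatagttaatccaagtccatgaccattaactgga

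Gm28437: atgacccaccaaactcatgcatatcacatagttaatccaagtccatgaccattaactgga

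The copy of mt-Nd3, Gm28438, differed from it at 1 of 345 aligned bases, T3C, with positions counted from 1 at the first base of the mtDNA gene. The differing base is in capitals.

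mt-Nd3: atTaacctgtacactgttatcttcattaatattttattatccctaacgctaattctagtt

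Gm28438: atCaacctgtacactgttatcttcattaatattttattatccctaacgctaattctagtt

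Gm29216, the copy of part of mt-Co1, also had a single difference, A1066T, within the 483 of its 492 bases that aligned. It is shown in capitals within bases 1063 to 1122 of mt-Co1.

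mt-Co1: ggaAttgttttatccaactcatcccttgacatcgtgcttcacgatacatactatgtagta

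Gm29216: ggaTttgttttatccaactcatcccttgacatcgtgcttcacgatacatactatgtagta

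The copies Gm28661 of mt-Co2, Gm10222 of mt-Nd4l, Gm10925 of mt-Atp6 and Gm28439 of mt-Nd4 aligned without any difference. A further 10 annotated copies with 90% to 98% identity elsewhere in the nuclear genome held 190 reads in all 45 libraries together.

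The authors' counting divided the reads between each mtDNA gene and its copy, and for 3 genes most of them went to the copy. Gm28437 was assigned 340107 reads over the 45 libraries and mt-Co3 35701, so the copy held 90.5% of both, and it exceeded mt-Co3 in 45 of 45 libraries. mt-Co3 was listed at 0 in 10 libraries. Gm10222 held 97.9% of the reads shared with mt-Nd4l, and mt-Nd4l was listed at 0 in 35 libraries. Gm28438 held 60.1% of those shared with mt-Nd3, and the share in single libraries spanned 0% to 100%. The other copies held less over all libraries: 16.4% for mt-Co1, 0.23% for mt-Atp6 and 0.01% for mt-Nd4. In single libraries the copy of mt-Atp6 reached 4.999% in LTF RFD and 6.83% in LTF HFD, and that of mt-Nd4 0.107%.

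For mt-Co2 the division differed between the sets of libraries. Gm28661 held 21.1% of the reads of both over all libraries. The median library share was 34.6% in STF RFD (16.1% to 50.1%) and 33.7% in STF HFD (9.31% to 43.9%). In LTF RFD the median was 0.035% (0% to 17.3%), and in LTF HFD it was 14.8% (0.003% to 46.1%). The ranges of all groups overlapped, and the difference between the sets was not tested. Levels of mt-Co3, mt-Nd4l and mt-Nd3 on their own are therefore uncertain, and the diet comparison of genes with a copy is given for the gene and for the sum of gene and copy.

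**Figure D1:**
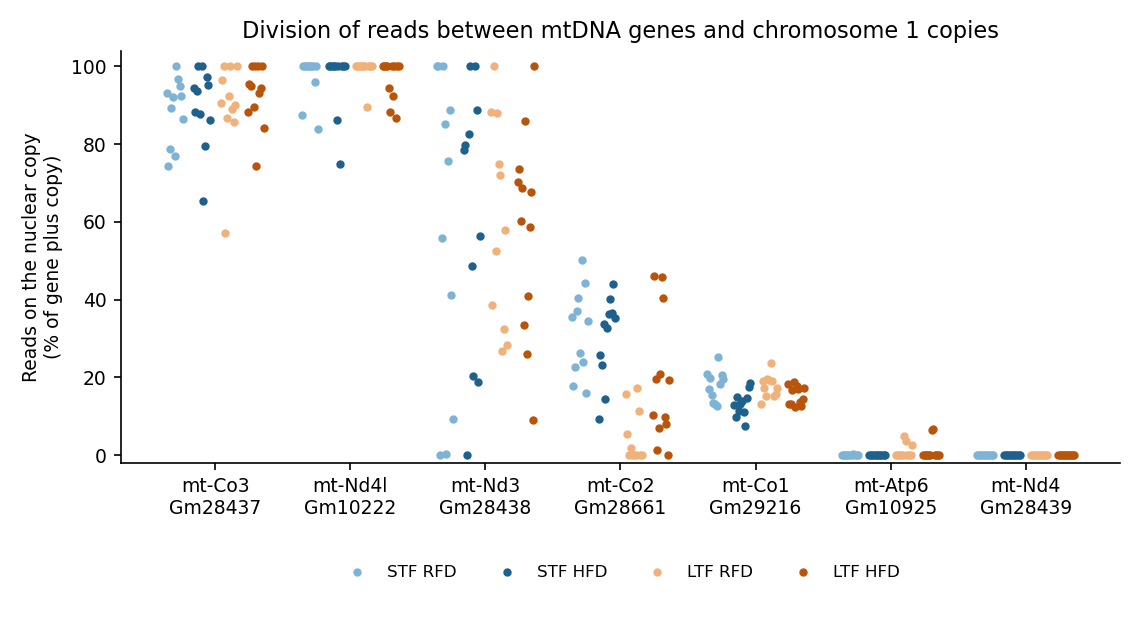
Reads on the nuclear copy as a percentage of the reads on the mtDNA gene plus the copy (vertical axis) for 7 gene and copy pairs, with 1 point per library coloured by set and diet. The copies of mt-Co3 lie at 57.1% or more in every library, those of mt-Atp6 at 6.83% or less and of mt-Nd4 at 0.107% or less, and that of mt-Co2 is spread up to 50.1%.

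Neighbouring genes also share bases. mt-Atp8 and mt-Atp6 overlap on the plus strand of mtDNA from position 7927 to 7969, so the following 43 bases belong to both and reads within them cannot be told apart.

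mt-Atp8 and mt-Atp6: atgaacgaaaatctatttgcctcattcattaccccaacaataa

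mt-Nd4l (9877 to 10173) and mt-Nd4 (10167 to 11544) overlap in the same way. The libraries were made with a kit that does not mark the strand, so reads from mt-Nd6 (13552 to 14070), the protein gene on the minus strand, cannot be told apart from antisense RNA of the other strand. The tRNA genes are 59 to 75 bases long, against 204 to 1824 bases for the genes with reads, and the shortest of them, mt-Ts2 (11613 to 11671), is printed as an example of what was listed at 0.

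mt-Ts2: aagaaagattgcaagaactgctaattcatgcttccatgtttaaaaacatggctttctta

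A tRNA listed at 0 says nothing about the amount of that tRNA in the cells, because the labels describe libraries with inserts far longer than a tRNA.

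The mtDNA genes took up between 4.49% and 41.7% of all reads on genes in a library, with a median of 7.54% over the 45 libraries. On RFD in the STF set the share was 7.10% in mouse 1, 13.4% in mouse 3, 8.59% in mouse 4 and 10.6% in mouse 84. In the mice numbered 10, 20 and 40 it was 29.5%, 17.5% and 41.7%, and in mice 21 to 24 it was 7.48%, 10.2%, 7.54% and 8.48%. The 3 multiples of 10 were thus the highest of the 11 RFD mice. On HFD in the STF set the share was 16.2%, 14.9%, 13.8% and 6.69% in mice 5 to 8. It was 37.1% in mouse 50, 9.06% in mouse 60, 4.71% in mouse 70 and 5.72% in mouse 80, and 8.14%, 6.98% and 9.78% in mice 62 to 64. Mouse 50 stood far above the other HFD mice, and the ranges of the 2 diets overlapped.

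Shares in the LTF set lay lower and closer together. The 11 RFD mice had 4.49% to 14.2% (median 6.57%), and mouse 4 was the highest. The 12 HFD mice had 5.10% to 21.2% (median 6.66%), and mouse 6 was the highest, followed by mouse 65 with 11.2%. The mean share was 14.7% ± 11.1 on RFD and 12.1% ± 9.14 on HFD in the STF set (SD, n = 11 each), and 7.19% ± 2.48 on RFD (n = 11) and 8.36% ± 4.49 on HFD (n = 12) in the LTF set.

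The difference between the diets was smaller than the spread between mice and turned on single libraries. HFD minus RFD was -2.63 percentage points in the STF set, and 0.074 without mouse 40 on RFD or -5.13 without mouse 50 on HFD. Within the number series it was 3.23 (1 to 8), -15.4 (multiples of 10) and -0.12 (other numbers). The LTF difference was 1.17 percentage points, -0.0032 without mouse 6 on HFD and 1.87 without mouse 4 on RFD. Within the series it was 1.39, -0.053 and 1.14. With the reads of the 7 nuclear copies added, the differences were -2.98 and 1.32 percentage points and the shares ranged from 4.99% to 45.2%. No test was made on the share.

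**Figure D2:**
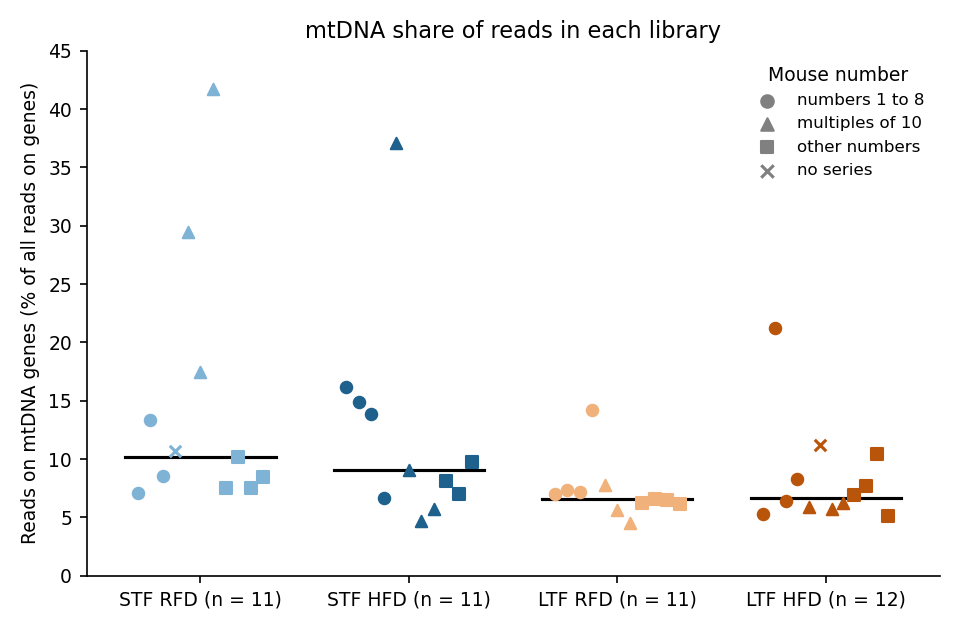
Reads on mtDNA genes as a percentage of all reads on genes (vertical axis) in each of the 45 libraries by set and diet, with a bar at the group median and symbols for the series of the mouse number. The medians are 10.2% and 9.06% in the STF set and 6.57% and 6.66% in the LTF set, with single mice up to 41.7%.

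Total reads ranged from 189340 to 4690213 per library (median 1633638). The 2 libraries of the STF set with the highest mtDNA share, RFD mouse 40 and HFD mouse 50, also had the fewest reads of all 45, with 189340 and 409023. RFD mouse 10, with the next highest share, had 729207. Tuft cell markers, a list of 20 genes with Dclk1, Trpm5 and Pou2f3 among them, made up 0.88% of reads in RFD mouse 40, 1.11% in mouse 10 and 1.09% in mouse 20, against a median of 4.05% in STF RFD (0.88% to 6.10%). They made up 0.46% in HFD mouse 50, against a median of 2.03% (0.14% to 5.76%), and 0.37% in LTF HFD mouse 6, the lowest of its group (median 3.68%, up to 5.98%). In LTF RFD their median was 4.26% (1.34% to 6.46%). All 20 tuft markers had reads in each group. Other libraries with few tuft marker reads had low mtDNA shares. STF HFD mouse 80, with the lowest tuft marker share of 0.14%, had 5.72% mtDNA reads. Mice 70 and 8 of its group had 0.66% and 0.646% tuft marker reads, and 4.71% and 6.69% mtDNA reads. Mouse 6 of that group, with 0.698% tuft marker reads, had 14.9% mtDNA reads. LTF RFD mouse 1, with the lowest tuft marker share of its group (1.34%), had 7.0043% mtDNA reads. STF HFD mice 80, 70 and 8 had 32.4%, 23.4% and 17.4% of their reads on 7 Paneth cell markers, which enter the same total. The relation of tuft marker share and mtDNA share was not tested.

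Paneth cell marker genes, which include Lyz1 and defensins, ranged from 0.0055% to 10.1% in STF RFD, 0.011% to 32.4% in STF HFD, 0.0095% to 4.80% in LTF RFD and 0.0033% to 13.2% in LTF HFD. Enterocyte markers made up 0.45% to 4.72% over all groups. Markers of B cells, eosinophils and intraepithelial T cells did not exceed 0.008% in any library. Those of macrophages reached 0.066% in a library of LTF HFD, and those of M cells 0.011% in a library of STF RFD. Goblet markers made up 0.0052% to 0.58% over all groups and enteroendocrine markers 0% to 0.61%. Stem and progenitor markers had medians of 0.037% on RFD and 0.14% on HFD in the STF set, and 0.014% and 0.032% in the LTF set. Between the diets, 5 markers of these lists were called, beside 3.32% of all genes tested in the STF set and 0.792% in the LTF set. In the STF set Olfm4 of the 6 stem and progenitor genes was higher on HFD and Apoc3 of the 10 enterocyte genes was lower. In the LTF set Cck, Gcg and Nts of the 8 enteroendocrine genes were lower. The part of depth and of other cell types in the mtDNA share was not tested, and with tuft minus other markers as a term 0 mtDNA genes were called in either set.

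**Figure D3:**
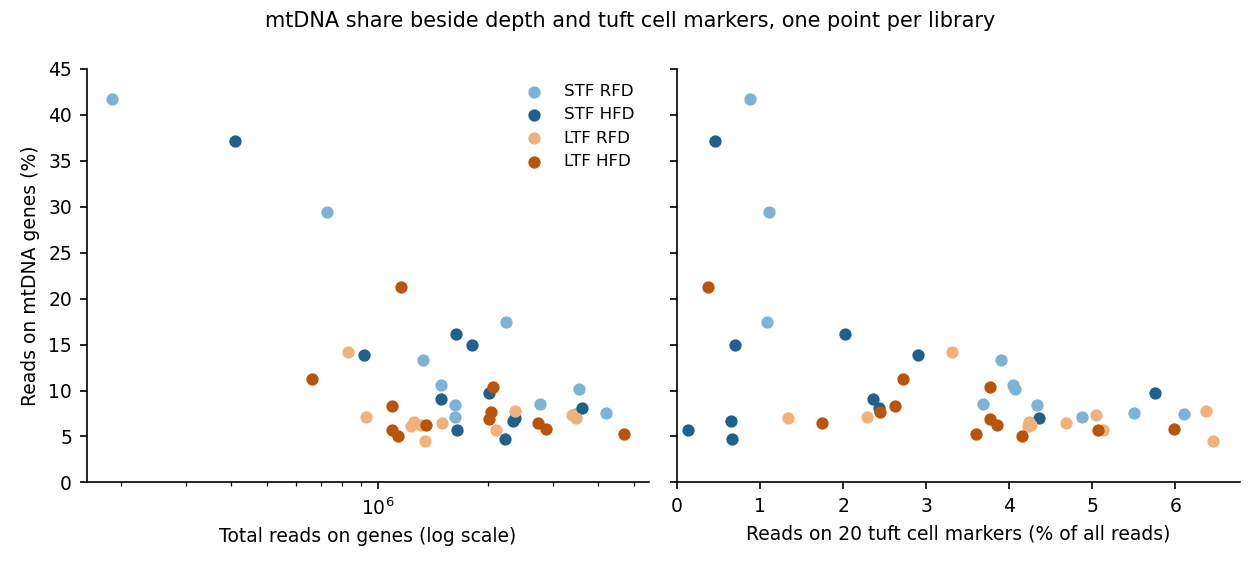
mtDNA share of reads (vertical axis, %) against total reads on genes (left, log scale) and against the share of reads on 20 tuft cell markers (right, %), with 1 point per library coloured by set and diet. The 2 libraries with the fewest reads, 189340 and 409023, have the highest mtDNA shares, 41.7% and 37.1%.

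AY036118, an abundant nuclear transcript, enters the same total. It held 4.21% to 16.6% of reads in STF RFD (median 11.8%) and 2.52% to 10.9% in STF HFD (median 4.65%), and its medians were 8.92% and 5.54% on RFD and HFD in the LTF set. Its log2 fold change on HFD in the STF set was -0.97 ± 0.27 (SE; edgeR, adjusted p = 0.0754). Lars2, the nuclear gene of the mitochondrial leucyl-tRNA synthetase, had 248.3 to 1750 CPM (normalized reads per 1e+06 reads) on RFD and 126.3 to 532.7 CPM on HFD in the STF set, and 11 of 11 HFD mice were below the RFD median. It was called lower, by -1.82 ± 0.33 on the log2 scale (SE; edgeR, adjusted p = 0.0104), and in the LTF set it had -0.38 ± 0.29 (SE; edgeR, adjusted p = 0.696). With AY036118 and Lars2 left out of the total, HFD minus RFD in mtDNA share was -3.49 and 1.03 percentage points in the STF and LTF sets.

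Among the mtDNA genes, levels were compared in TPM, a relative abundance which corrects for length. The study primed its cDNA with an oligo-dT primer, which binds runs of A. The values therefore describe RNA that this primer could copy, and the part of priming in the order of the genes was not tested. Over the 45 libraries the median TPM was highest for mt-Atp6 (19189), mt-Rnr2 (17498) and mt-Cytb (12610), and then for mt-Atp8 (10869), mt-Co1 (8391), mt-Nd1 (8033) and mt-Co2 (6672). mt-Nd4, mt-Rnr1 and mt-Nd5 followed with 2855, 1261 and 1115. mt-Nd2 (584), mt-Co3 (525), mt-Nd6 (367), mt-Nd3 (365) and mt-Nd4l (0) were the lowest. Each gene varied so widely over the libraries, for example from 7110 to 131352 TPM for mt-Atp6 and from 4252 to 73918 TPM for mt-Rnr2, that neighbours in this order cannot be separated by their ranges. The value of mt-Atp8 rested on 57 to 687 reads per library, since TPM divides by an effective length that is small for a gene of 204 bases.

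**Figure D4:**
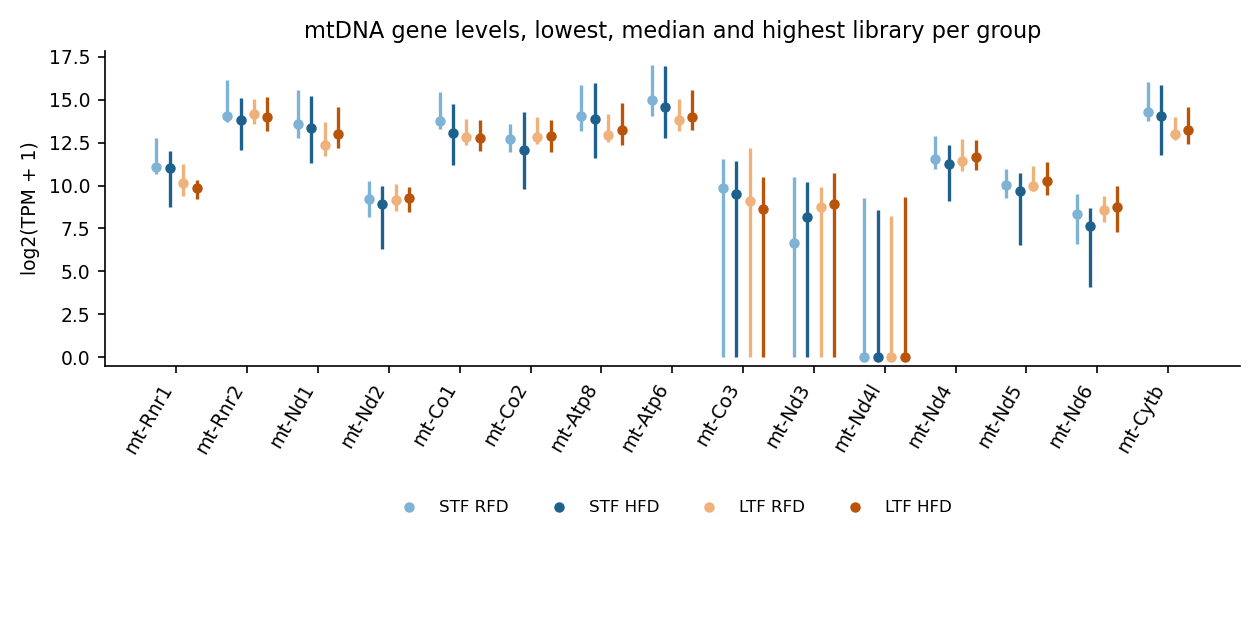
log2(TPM + 1) of the 15 mtDNA genes with reads (vertical axis), in their order along mtDNA (horizontal axis), with a line from the lowest to the highest library and a point at the median for each set and diet. mt-Co3, mt-Nd3 and mt-Nd4l reach 0 in every group, and the other 12 genes are above 0 in every library.

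Reads per kilobase and per 1e+06 reads were computed on the annotated length as another scale, once with each gene's own reads and once with the reads of the copies added. With the copies mt-Co3 went from rank 12 of 15 to rank 7 on this scale, with a median of 5081 in place of 399.8, close to mt-Co2 with 5455. mt-Nd4l went from rank 15 to rank 11, from a median of 0 to 644.2. mt-Co1 was at rank 4 either way, with 9893 in place of 8150. mt-Atp8, which has no near-identical copy, had 470.8 and went from rank 11 to rank 13 as others passed it, against rank 4 in TPM.

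TPM values of the complex I genes were uneven. mt-Nd1 had a median of 8033 TPM and mt-Nd2, its neighbour on the same strand, 584 TPM, and mt-Nd4 and mt-Nd5 lay between them. mt-Nd2 had 77.8 to 1237 TPM over the 45 libraries and mt-Nd1 2585 to 48641 TPM, so the ranges of the 2 genes did not overlap. mt-Nd6, the protein gene on the minus strand, had 20 to 336 reads per library.

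Reads on the 2 rRNAs differed as well. mt-Rnr2 had between 20182 and 106844 reads in every library, and mt-Rnr1 had 534 to 5385. mt-Rnr2 made up 20.8% to 32.7% of all mtDNA reads in STF RFD (median 27.9%) and 20.1% to 33.1% in STF HFD (median 26.2%). In the LTF set it made up 30.6% to 49.1% on RFD (median 39.4%) and 27.4% to 43.1% on HFD (median 36.5%). mt-Cytb made up medians of 19.95% and 21.5% of mtDNA reads in the STF groups and 12.2% and 13.2% in the LTF groups. Its RFD ranges, 17.0% to 24.9% and 9.64% to 16.5%, did not overlap between the sets. The same held on RFD for mt-Nd4 (2.62% to 4.37% and 4.61% to 6.07%). It also held on RFD for mt-Co2 on its own reads (1.51% to 3.83% and 4.05% to 5.63%). The copy of mt-Co2 took a median of 34.6% of the reads of both in STF RFD and 0.035% in LTF RFD. The range with the copy added was not computed, so the gap of mt-Co2 cannot be told apart from this division. On HFD the mt-Co2 ranges overlapped (1.95% to 3.68% and 2.72% to 5.50%). The RFD ranges of the other mtDNA genes with reads overlapped, for example mt-Nd2 (0.29% to 0.57% and 0.51% to 0.89%) and mt-Nd5 (0.99% to 2.39% and 2.25% to 3.36%). How many genes outside mtDNA separate the sets in this way was not counted. The differences between the sets of libraries were not tested.

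The diets were compared within each set to ask whether mtDNA transcripts differ with high fat feeding. No mtDNA gene was called in either set at adjusted p under 0.1 (quasi-likelihood test of edgeR on counts, adjusted after Benjamini and Hochberg over 14020 genes). Over all genes 3.32% were called in the STF set and 0.792% in the LTF set. At an unadjusted p under 0.05 there was 1 mtDNA gene of 15 in each set, against 18% and 10.3% of all genes. DESeq2 called 0 mtDNA genes in both sets, with 1 and 0 at an unadjusted p under 0.05. limma on log2(TPM + 1) and a Wilcoxon rank sum test called 0, with 0 and 0 each. Over all genes the 15 alternatives of the STF set called from 5 to 1698, and the 13 of the LTF set from 31 to 435. Their shares of all genes at an unadjusted p under 0.05 are not given here. For all 15 genes the ranges of the diets overlapped in both sets. How many of all genes overlap in this way is not given here, so the overlap is not a trait of the mtDNA genes.

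In the STF set 14 of the 15 log2 fold changes were below 0, against 7386 of all 14020 genes tested. Their median was -0.31, against a median of -0.051 over all genes tested. Of the LTF values 12 of 15 were above 0, against 6717 of all 14020 genes, with a median of 0.33 against -0.026 over all genes. These counts and medians include mt-Nd4l and mt-Nd3, whose own reads are uncertain, and the STF median is the value of mt-Nd4l and the LTF median that of mt-Nd3. With the reads of the copies added, the medians were -0.34 and 0.33. The genes of mtDNA share libraries, so the counts are not independent observations. The LTF median was -0.027 without mouse 6 on HFD and 0.49 without mouse 4 on RFD, and the STF median ranged from -0.78 without mouse 50 on HFD to -0.18 without mouse 40 on RFD. Within the number series of the STF set, 11 of 15 genes were above 0 among mice 1 to 8, 2 among the multiples of 10 and 1 among the other numbers.

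**Figure D5:**
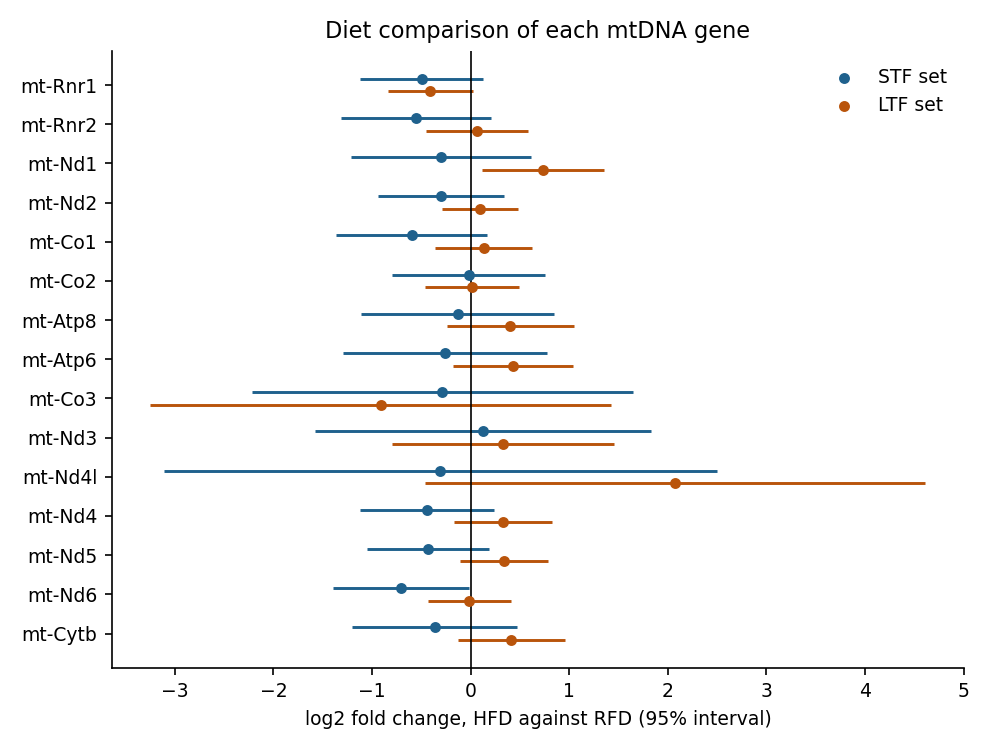
log2 fold change of HFD against RFD (horizontal axis) with its 95% interval for each of the 15 mtDNA genes (vertical axis) in the STF and LTF sets. The interval includes 0 for 14 of 15 genes in each set, and the exceptions are mt-Nd6 in the STF set and mt-Nd1 in the LTF set.

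The rRNAs showed no call. In the STF set mt-Rnr1 had 1274 to 7443 CPM on RFD (median 1746) and 852 to 3749 CPM on HFD (median 1666). Its log2 fold change was -0.50 ± 0.31 (SE; edgeR, adjusted p = 0.406). On the LTF side it had 496.6 to 1798 CPM on RFD (median 904) and 441.3 to 1377 CPM on HFD (median 676.5), and 10 of 12 HFD mice were below the RFD median. The log2 fold change was -0.41 ± 0.21 (SE; edgeR, adjusted p = 0.509), and it was below 0 in all 3 number series. mt-Rnr2 had log2 fold changes of -0.55 (SE 0.37) and 0.068 (SE 0.25) in the STF and LTF sets.

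Among the genes of complex I, mt-Nd1 had the smallest p of the LTF set. It had 2872 to 10006 CPM on RFD (median 4139) and 3564 to 32689 CPM on HFD (median 5644), and 10 of 12 HFD mice were above the RFD median although only 2 were above every RFD mouse. HFD against RFD gave a log2 value of 0.73 (95% interval 0.11 to 1.35, p = 0.022, adjusted p = 0.398 from edgeR), and within the number series it was 0.49, 0.30 and 0.46. Without mouse 6 on HFD it was 0.26. In the STF set mt-Nd1 had 4689 to 51529 CPM on RFD and 4689 to 49668 CPM on HFD, with a log2 fold change of -0.30 (95% interval -1.21 to 0.61, adjusted p = 0.781 from edgeR).

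mt-Nd6 had the smallest p of the STF set. It had 25.9 to 254.7 CPM on RFD (median 81.4) and 22.3 to 122.3 CPM on HFD (median 51.3), and 9 of 11 HFD mice were below the RFD median. The log2 fold change was -0.71 (95% interval -1.39 to -0.020, p = 0.0441, adjusted p = 0.266 from edgeR), and within the number series it was 0.22, -1.90 and -0.32. Among LTF mice mt-Nd6 had 55.8 to 160.3 CPM on RFD and 60.8 to 213.8 CPM on HFD, with a log2 fold change of -0.013 (95% interval -0.43 to 0.41).

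The other complex I genes that kept most of their own reads had small values. mt-Nd2 had log2 fold changes of -0.30 (SE 0.31) and 0.099 (SE 0.19) in the STF and LTF sets, mt-Nd4 -0.44 (SE 0.33) and 0.33 (SE 0.24), and mt-Nd5 -0.43 (SE 0.30) and 0.34 (SE 0.22). With Gm28439 added, mt-Nd4 had -0.44 and 0.33. mt-Nd5 had 1177 to 5314 CPM on RFD and 804.7 to 4812 CPM on HFD in the STF set, and 1344 to 3941 CPM on RFD and 1483 to 6060 CPM on HFD in the LTF set. The smallest adjusted p among these 3 genes was 0.469.

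mt-Nd3 and mt-Nd4l depended on their copies. mt-Nd3 had a median of 13.5 CPM on RFD and 27.7 CPM on HFD in the STF set, with libraries at 0 on both diets. mt-Nd4l was listed at 0 in 8 of 11 RFD and 9 of 11 HFD libraries of the STF set and in 10 of 11 RFD and 8 of 12 HFD libraries of the LTF set, so its own fold change is not described further. With the reads of Gm10222 added, mt-Nd4l had a log2 fold change of -0.33 (edgeR, p = 0.119, adjusted p = 0.411) in the STF set and 0.46 (p = 0.0255, adjusted p = 0.417 from edgeR) in the LTF set. With Gm28438 added, mt-Nd3 had 0.0021 and 0.35.

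mt-Cytb, the only mtDNA gene of complex III, had 12498 to 91439 CPM on RFD and 11274 to 99164 CPM on HFD in the STF set, with a log2 fold change of -0.36 ± 0.41 (SE; edgeR, adjusted p = 0.686). Among LTF mice it had 6606 to 15750 CPM on RFD and 5407 to 42337 CPM on HFD, with a log2 fold change of 0.41 ± 0.26 (SE; edgeR, adjusted p = 0.623). The highest HFD value was above every RFD mouse in both sets.

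In complex IV, mt-Co1 had 14849 to 89847 CPM on RFD (median 19037) and 7634 to 67606 CPM on HFD (median 17330) in the STF set, and 5 of 11 HFD mice were below every RFD mouse. Its log2 fold change was -0.60 ± 0.38 (SE; edgeR, adjusted p = 0.413), and -0.64 with the reads of Gm29216 added. The LTF value was 0.13 (SE 0.24), and 0.084 with the copy added. mt-Co2 had -0.021 (SE 0.38) and 0.014 (SE 0.23) on its own, and -0.25 and 0.33 with Gm28661 added. mt-Co3 had -0.29 (SE 0.93) and -0.91 (SE 1.12), with values from 0 to 2536 CPM on RFD in the LTF set. With the reads of Gm28437 added it had -0.34 and 0.24, so its direction in the LTF set turned.

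The copies themselves were tested in the same fit. Gm28437 had log2 fold changes of -0.35 (SE 0.38) and 0.35 (SE 0.23), and Gm29216 had -0.90 ± 0.34 (SE; edgeR, adjusted p = 0.159) and -0.17 (SE 0.22). Gm28661 had -0.80 ± 0.39 (SE; edgeR, adjusted p = 0.281) and 2.75 ± 1.27 (SE; edgeR, adjusted p = 0.471). None of the 3 was called in either set.

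The ATP synthase genes were close to each other. mt-Atp6 had log2 fold changes of -0.26 (SE 0.50) and 0.43 (SE 0.30), which stayed at -0.26 and 0.43 with Gm10925 added, and mt-Atp8 had -0.13 (SE 0.47) and 0.40 (SE 0.32). mt-Atp6 spanned 6481 to 79195 CPM on RFD and 7274 to 97140 CPM on HFD in the STF set, and 4543 to 14070 CPM and 4066 to 38559 CPM in the LTF set. The highest HFD values exceeded all RFD values in both sets.

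The difference between the diet effects of the sets was tested as an interaction over all 45 libraries. It was LTF minus STF, and it was above 0 for 14 of 15 mtDNA genes, against 7613 of all 14020 genes. The median was 0.76 for the mtDNA genes, against 0.060 over all genes. No mtDNA gene was called, and 0% of all 14020 genes were called at adjusted p under 0.1 (quasi-likelihood test of edgeR), with 2 mtDNA genes and 3.22% of all genes at an unadjusted p under 0.05. DESeq2 called 0 mtDNA genes, with 3 at an unadjusted p under 0.05, and limma 0 with 0. The shares of all genes with these methods are not given here. mt-Nd5 had an interaction of 0.84 (95% interval 0.081 to 1.59, p = 0.0308, adjusted p = 1.00 from edgeR), and mt-Nd4 had 0.84 (95% interval 0.0027 to 1.67, p = 0.0493). With the reads of Gm10222 added, mt-Nd4l had 0.85 (p = 0.0037, adjusted p = 1.00 from edgeR).

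Nuclear genes that copy, transcribe and process mtDNA were taken as a list of 61 genes, chosen with earlier results of these data known, and all were tested. In the STF set 2 of 61 were called higher on HFD and none lower (quasi-likelihood test of edgeR, adjusted p under 0.1), beside 3.32% of all genes. At an unadjusted p under 0.05, 11 of 61 were higher and 1 was lower, beside 18% of all genes, of which 1364 were higher and 1159 lower. Of the 61 fold changes, 47 were above 0, against 6634 of all 14020 genes, with a median of 0.55 against -0.051 over all genes. Stem and progenitor markers, some of which mark dividing cells, had a higher median share on HFD in the same libraries: Olfm4 was called higher on HFD, at 2.05 ± 0.59 on the log2 scale (SE; edgeR, adjusted p = 0.0848), and Mki67 had 1.25 ± 0.46 (SE; edgeR, adjusted p = 0.153). Their part in the values of the list was not tested. None of the 61 was called in the LTF set, beside 0.792% of all genes. DESeq2, limma and the Wilcoxon test called 0 of the 61, and over all genes the alternatives of this set called from 31 to 435. At an unadjusted p under 0.05, 3 of the 61 were higher and none lower, beside 10.3% of all genes, and the median was 0.25. In the interaction none was called in edgeR, and 0 had an unadjusted p under 0.05.

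The genes called were Lrpprc and Tfb2m. Lrpprc, which stabilizes mitochondrial messenger RNAs, had 12.8 to 99.1 CPM on RFD (median 33.1) and 28.4 to 111.3 CPM on HFD (median 76.2) in the STF set, and 10 of 11 HFD mice were above the RFD median. HFD against RFD gave a log2 value of 0.96 ± 0.28 (SE; edgeR, adjusted p = 0.0807). The LTF value was 0.67 ± 0.46 (SE; edgeR, adjusted p = 0.662). Tfb2m, a mitochondrial transcription factor, had 0 to 23.7 CPM on RFD (median 8.80) and 11.8 to 36.1 CPM on HFD (median 20.3), and 11 of 11 HFD mice were above the RFD median. Its log2 fold change was 1.28 ± 0.38 (SE; edgeR, adjusted p = 0.0832), and 0.67 ± 0.40 (SE; edgeR, adjusted p = 0.584) in the LTF set. With 1 library left out at a time, Lrpprc was called in 7 of 22 fits (adjusted p 0.00759 to 0.159, edgeR) and Tfb2m in 8 of 22 (0.0334 to 0.165). In 15 other alternatives each was called in 10. No gene of the list was called with tuft minus other markers as a term, or without the 2 libraries under 500000 reads.

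Tfam, which packages mtDNA and activates its transcription, had 0.59 to 42.3 CPM on RFD (median 21.5) and 10.1 to 68.6 CPM on HFD (median 47.8) in the STF set. HFD against RFD gave a log2 value of 0.98 ± 0.42 (SE; edgeR, adjusted p = 0.212), and 0.61 ± 0.40 (SE; edgeR, adjusted p = 0.637) in the LTF set. Polrmt, the RNA polymerase of mtDNA, had -0.25 (SE 0.44) and 0.25 (SE 0.38). Ppargc1a, a coactivator known for mitochondrial gene programmes, had 13.5 to 36.1 CPM on RFD and 0 to 21.4 CPM on HFD in the STF set, where 11 of 11 HFD mice were below the RFD median. Its log2 fold change was -0.93 ± 0.58 (SE; edgeR, adjusted p = 0.412), and -0.53 ± 0.35 (SE; edgeR, adjusted p = 0.643) in the LTF set.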

How the data were processed

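Bulk RNA-seq of 45 libraries was analysed. Per the labels and the study's methods, the authors trimmed reads with cutadapt 1.15, aligned them with STAR 2.6.0 (GRCm38) and quantified genes with RSEM. The deposited expected counts divide reads that match several genes, and 8.79% of those above 0 were not whole within 0.005. The deposited TPM values are RSEM's. FPKM values and 24 columns that match no sample were not used.

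Counts were rounded, and 14020 genes with over 5 reads in at least 6 libraries were tested with edgeR 4.0.16 (TMM, robust quasi-likelihood fit), HFD against RFD per set and as an interaction, at a Benjamini-Hochberg adjusted p under 0.1. The first fit filtered on rounded counts and did not use robust estimation. It was replaced after its results had been seen, to match the processing used for the whole series. It called 331 (STF) and 108 (LTF) genes, against 466 and 111 here, and 0 mtDNA genes in either set. The study's SAM-seq test on counts weighted by cell type was not repeated. DESeq2 1.42.0, limma 3.58.1 and a Wilcoxon test were alternatives. The fit was tested on simulated data. p-values measure the spread between libraries of single mice, taken as independent. The study housed several mice per cage and ended each feeding period over consecutive days, with a cage of each group each day. The labels name neither cage nor day, so no term was fitted for them, and mice of a cage may not be independent. Nuclear copies were found with blastn (at least 90% identity over 100 bases) among GENCODE M21 transcripts on GRCm38, the source of the printed sequences.

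The mtDNA genes and the lists were chosen with earlier results of these data known. Named were all mtDNA genes, Tfam, Polrmt, Lrpprc, Ppargc1a, AY036118, Lars2, list genes that were called, and the 3 copies with most reads. The other 4 near-identical copies were named after their reads had been seen.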

Additional observations from a re-analysis of the deposited data

How the results depend on the processing

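No mtDNA gene was called in any of 15 alternatives in the STF set, 13 in the LTF set and 14 of the interaction, nor with any 1 library left out of the STF or the LTF set. The median log2 fold change of the mtDNA genes stayed below 0 in the STF set in these alternatives (-0.61 to -0.18) and above 0 in the LTF set (0.040 to 0.39), where it was -0.027 without HFD mouse 6. Of single genes, 221 of 225 STF and 178 of 195 LTF values kept their direction and their side of the threshold. The cause of the changes below was not tested.

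Over all genes in the STF set DESeq2 called 1534, the Wilcoxon test 761, limma 9 with log2(TPM + 1) and 5 with log2(TPM + 0.1), no filter 1698, a tuft marker term 26, and the fit without libraries under 500000 reads 290. In the LTF set DESeq2 called 351, limma 51 and 31, no filter 435, the number series term 187 and the tuft marker term 243. Of the nuclear list in the STF set, DESeq2 called 9, the Wilcoxon test 4, no filter 5, limma 0 with either pseudocount, the tuft marker term 0 and the fit without libraries under 500000 reads 0.

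Some settings were chosen after seeing the data. Without the 3 STF libraries of fewest reads, which also have the highest mtDNA shares, 1 nuclear gene was called and the share differed by -0.49 percentage points. Fits without robust estimation called 431 STF and 102 LTF genes, and with the filter on rounded counts as well, the first fit made, 331 and 108. Adding the copies' reads turned mt-Co3 in the LTF set to 0.24.

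Directions also turned, on the log2 scale, for mt-Nd3 in the STF set (-0.41 with DESeq2, -0.17 with the Wilcoxon test, -0.021 with DESeq2's size factors) and mt-Co2 (0.0046 with no filter). In the LTF set they turned for mt-Atp8 (-0.096) and mt-Atp6 (-0.029) with DESeq2, for mt-Rnr2 (-0.039 with limma at both pseudocounts, -0.15 with the tuft term), for mt-Co1 (-0.059 with the tuft term) and for mt-Co2 (-0.069 with limma at both pseudocounts, -0.069 with the series term, -0.11 with the tuft term). mt-Nd6 turned to 0.00018 with DESeq2, 0.0025 with its size factors, 0.039 with no filter, 0.016 without AY036118 and Lars2, 0.017 with totals that leave out mtDNA genes and 0.015 in the first fit. The share in the STF set differed by -15.4 percentage points among multiples of 10.

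Leaving out 1 library at a time gave 59 (HFD mouse 6) to 1996 (HFD mouse 64) genes in the STF set and 58 (RFD mouse 10) to 667 (RFD mouse 1) in the LTF set, and 0 to 10 (RFD mouse 20) and 0 to 3 (RFD mouse 1) nuclear genes. With 1 library per mouse, the 16 mouse numbers that both sets share under the same diet belong to different mice. Deviations correlated over 0.1 for 2 of 16, which cannot decide whether libraries of the same number are linked in another way. With the number as a replicate block, 0 mtDNA genes and 0 of all genes were called in the interaction.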
